A study of Homo sapiens with 11 samples.

Results

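MDA-MB-468 is a basal-like, triple-negative human breast cancer line that was established from a pleural effusion. The results described here are the TNF response of these cells while they were exposed to apigenin, a flavone found in parsley and celery. The response was read from 3 arrays of cells given TNF and apigenin together and 2 arrays of cells given apigenin without TNF, which are 5 of the 11 arrays in the series. The other arrays are 3 of untreated cells (control) and 3 of cells given TNF without apigenin. TNF was used at 40 ng/ml and apigenin at 40 µM, both made up in a buffered salt solution, and cells were collected after 24 h. All groups are the same cell line grown in high-glucose medium with serum, and both groups compared here carry apigenin, so the difference between them is the addition of TNF. Arrays were assigned to groups by their titles, which speak of triplicates although apigenin alone has replicates 1 and 2 here. The labels do not say whether replicates were separate cultures, so a p-value here covers just the spread among the arrays, and that spread may be technical.

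TNF is a cytokine that binds TNFR1 on epithelial cells and recruits TRADD, TRAF2, RIPK1 and the cIAP ubiquitin ligases. The IKK complex is then activated, IκB proteins are degraded, and NF-κB dimers of RELA and NFKB1 enter the nucleus. They bind κB sites and induce chemokines, adhesion molecules and survival genes, together with inhibitors of the pathway itself such as IκBα (NFKBIA) and A20 (TNFAIP3). Apigenin is a ligand of the aryl hydrocarbon receptor, which drives CYP1 genes, and has been described as an inhibitor of several kinases.

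Expression is given as log2 of the array signal after quantile normalization of all 11 arrays. Array apigenin 1 was dimmer and narrower as deposited, with a median of 3.90 and an interquartile range of 2.40 over the tested genes. The medians of the other 10 arrays lay between 4.09 and 4.32, and after normalization all 11 lay between 4.15 and 4.24. The 2 apigenin arrays correlated at 0.969 across genes, and the TNF plus apigenin arrays at 0.981 to 0.988. The background, taken as the median over all probe set means, was 2.53. A gene whose mean lay under 3.03 in either group is called near background, and its change is then given in log2 units without a fold, because a ratio to background is not a ratio of transcript levels. The cells kept the markers of the line: 7 of 7 epithelial markers, among them EPCAM, CDH1 and EGFR, were measured above background, with a mean level over the markers of 7.29 to 7.39 on the apigenin arrays and 7.04 to 7.17 on the TNF plus apigenin arrays. The mean of ESR1 was below background in both groups, with single arrays at 2.07 to 2.63. Of the markers of macrophages 4 of 8 were tested, of T and B cells 2 of 8, of fibroblasts 2 of 7 and of endothelium 3 of 6. None of these 11 was called by limma, while 1 or 2 of each set had a group mean at or above 3.03.

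A total of 15832 genes were tested with limma, and a gene is said to have risen or fallen when its p adjusted over all of them was under 0.05. In apigenin-treated cells 96 genes were called with TNF, which is 0.606% of the genes tested. Of these, 78 rose (0.493%) and 18 fell (0.114%). The rises ran from 0.68 to 4.17 log2 units with a median of 1.08, and the falls from -0.66 to -1.83 with a median of -0.90. The median change over all tested genes was 0.018. The split depended on the scaling: on the deposited values it was 77 higher and 5 lower, and when each array was shifted to a common median it was 166 and 7. At an unadjusted p under 0.05 there were 2365 genes, 1365 higher (8.62% of those tested) and 1000 lower (6.32%). For all 96 called genes the 3 TNF plus apigenin arrays lay entirely above or below the 2 apigenin arrays. That separation was common, at 32.9% of all tested genes.

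The number of calls depended on the arrays in the fit. Without apigenin 1 there were 30 calls, 28 higher and 2 lower. Without apigenin 2 there were 223, 126 higher and 97 lower, so that 56.5% were higher against 81.2% with all arrays, while there were 37 and 42 without TNF plus apigenin 2 and 3. A fit to the 5 compared arrays alone made 18 calls, all of them rises that the fit to 11 arrays also called. Of the 96 genes, 24 were still called without apigenin 1, all of them genes that rose, and 60 without apigenin 2, of which 51 rose and 9 fell. Without apigenin 1 all 78 rises and all 18 falls kept their sign, and 78 and 17 of them stayed within 1.5 times their size. Because the arrays of all 96 genes were separate, leaving out 1 array could hardly turn a sign. The kept signs are therefore no test of the directions. A set of 20 genes was called in each of the 11 fits that left out 1 array. These were TNFAIP3, CXCL8, CXCL10, CCL2, TNFAIP2, CYLD, NFKBIA, NFKB1, C1QTNF1, OLR1, EDN1, EFNA1, ICAM1, IKBKE, TNF, IFNGR1, IFNGR2, GBP2, GBP3 and MMP7. Every one of the 18 falls lost its call in at least 1 such fit. Of the 20 genes, GBP2, GBP3, IFNGR1, IFNGR2, IKBKE and MMP7 were not called in the fit to the 5 compared arrays. GBP3 was also not called when the probe sets of a gene were averaged.

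**Figure D1:**
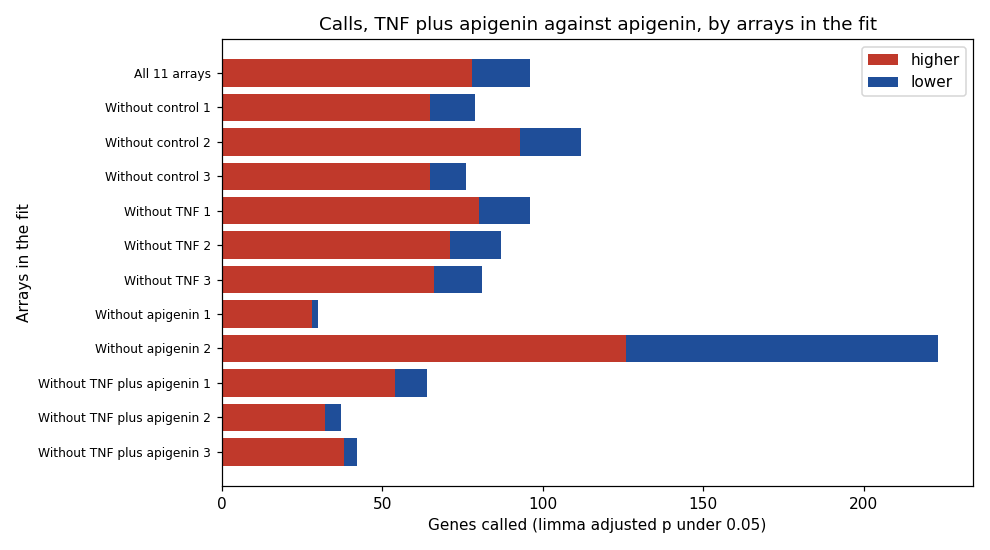
Number of genes called (x axis, limma adjusted p under 0.05) for TNF plus apigenin against apigenin, with all 11 arrays and with each array left out in turn (y axis), red for higher and blue for lower. Calls number 96 with all arrays, 30 without apigenin 1 and 223 without apigenin 2.

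The promoters of 7 of the raised genes, picked as known targets of NF-κB, are shown, and they hold matches to its binding letters. CCL2 was picked too, but no promoter was matched for it. Each is the 200 bases before the start of the gene in RefSeq (GRCh38.p14), 5′ to 3′ on the gene's strand. NFKB1 has 2 promoters listed, of which the first is shown. Capitals mark matches on either strand to the κB consensus, a motif of 10 letters, or to the shorter GGNNNTTCC, and the motifs overlap each other. CXCL8 and ICAM1 hold only the shorter motif, as does the last capital stretch of CXCL10.

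CXCL8, at chr4:73740369-73740568 (plus strand): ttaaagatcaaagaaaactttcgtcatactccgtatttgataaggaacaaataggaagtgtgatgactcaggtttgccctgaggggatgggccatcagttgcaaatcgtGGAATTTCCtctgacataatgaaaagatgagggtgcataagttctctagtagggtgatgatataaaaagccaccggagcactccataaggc

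CXCL10, at chr4:76023498-76023697 (minus strand): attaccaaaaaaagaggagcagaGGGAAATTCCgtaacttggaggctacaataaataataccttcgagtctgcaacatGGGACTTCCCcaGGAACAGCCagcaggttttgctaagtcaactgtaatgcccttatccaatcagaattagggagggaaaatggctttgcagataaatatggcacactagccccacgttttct

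CCL20, at chr2:227813642-227813841 (plus strand): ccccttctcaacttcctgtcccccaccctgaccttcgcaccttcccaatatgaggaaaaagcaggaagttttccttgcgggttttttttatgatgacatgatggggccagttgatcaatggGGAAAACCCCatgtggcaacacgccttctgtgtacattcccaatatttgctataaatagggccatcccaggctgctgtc

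TNFAIP3, at chr6:137867059-137867258 (plus strand): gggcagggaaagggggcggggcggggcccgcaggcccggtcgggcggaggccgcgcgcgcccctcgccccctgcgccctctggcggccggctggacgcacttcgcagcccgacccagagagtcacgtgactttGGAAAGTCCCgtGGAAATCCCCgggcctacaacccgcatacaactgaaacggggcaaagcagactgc

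NFKBIA, at chr14:35404750-35404949 (minus strand): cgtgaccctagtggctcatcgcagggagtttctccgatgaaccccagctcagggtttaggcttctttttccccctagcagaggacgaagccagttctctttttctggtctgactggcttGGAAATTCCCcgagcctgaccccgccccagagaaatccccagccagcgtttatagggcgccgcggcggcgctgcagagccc

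NFKB1, at chr4:102501159-102501358 (plus strand): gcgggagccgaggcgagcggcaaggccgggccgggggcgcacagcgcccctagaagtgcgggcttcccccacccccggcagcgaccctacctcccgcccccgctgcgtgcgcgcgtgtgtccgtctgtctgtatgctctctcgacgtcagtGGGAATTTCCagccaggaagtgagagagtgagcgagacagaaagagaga

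ICAM1, at chr19:10270920-10271119 (plus strand): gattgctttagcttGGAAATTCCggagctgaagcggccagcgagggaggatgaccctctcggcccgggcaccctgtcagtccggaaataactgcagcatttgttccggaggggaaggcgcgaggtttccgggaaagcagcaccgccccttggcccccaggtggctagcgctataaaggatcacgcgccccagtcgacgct

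RefSeq promoters of 300 bases (250 before to 50 after the start) were matched for 61 of the 78 raised genes and 11 of the 18 lowered genes, some with more than 1 start. The κB consensus was found in 20 of 80 promoters of raised genes (25.0%) and in 0 of 14 promoters of lowered genes. It was found in 13.4% of the 16473 promoters of all tested genes and in 11.3% of the 35116 promoters in the table. GGNNNTTCC was found in 30 of 80 promoters of raised genes (37.5%), in 3 of 14 of lowered genes (21.4%) and in 22.2% of the promoters of tested genes. A match describes the letters of the promoter and is not a measured binding site.

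Chemokines held 4 of the 5 largest rises. CXCL8, the neutrophil attractant interleukin-8, lay at 3.90 and 3.32 on the apigenin arrays and at 7.30, 8.18 and 7.86 with TNF added. The groups were far apart, with a change of 4.17 ± 0.29 (SE, adjusted p = 6.23e-05 by limma) or 18.0-fold. CCL2, which attracts monocytes, was at 2.36 and 2.40 without TNF, near background, and at 6.14, 5.82 and 5.57 with it. Its change was 3.47 ± 0.33 log2 units (adjusted p = 0.000671). CCL20, the ligand of CCR6 on dendritic cells and T cells, was at 2.22 and 2.71 and rose to 5.32, 6.34 and 5.78, by 3.35 ± 0.40 (adjusted p = 0.00405). CXCL10, the interferon-inducible ligand of CXCR3, was at 2.26 and 2.58 and rose to 5.04, 5.28 and 5.47, by 2.85 ± 0.18 (adjusted p = 3.97e-05). CCL2, CCL20 and CXCL10 were thus at or near background in apigenin-treated cells without TNF. CXCL1, another neutrophil attractant, rose by 1.57 ± 0.28 (adjusted p = 0.0286), from 3.67 and 4.46 to between 5.43 and 5.80. In all, 5 of 16 tested chemokines rose and none fell, with a median change of 0.59. This count and those of the lists below are to be read against all tested genes, of which 0.493% rose and 0.114% fell. Without apigenin 1 the calls of CCL20 (3.14, adjusted p = 0.0577 by limma) and CXCL1 (1.18, adjusted p = 0.172) were lost. CXCL1 also lost its call without any 1 of the TNF plus apigenin arrays, and its change over all these fits was 1.18 to 1.97.

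**Figure D2:**
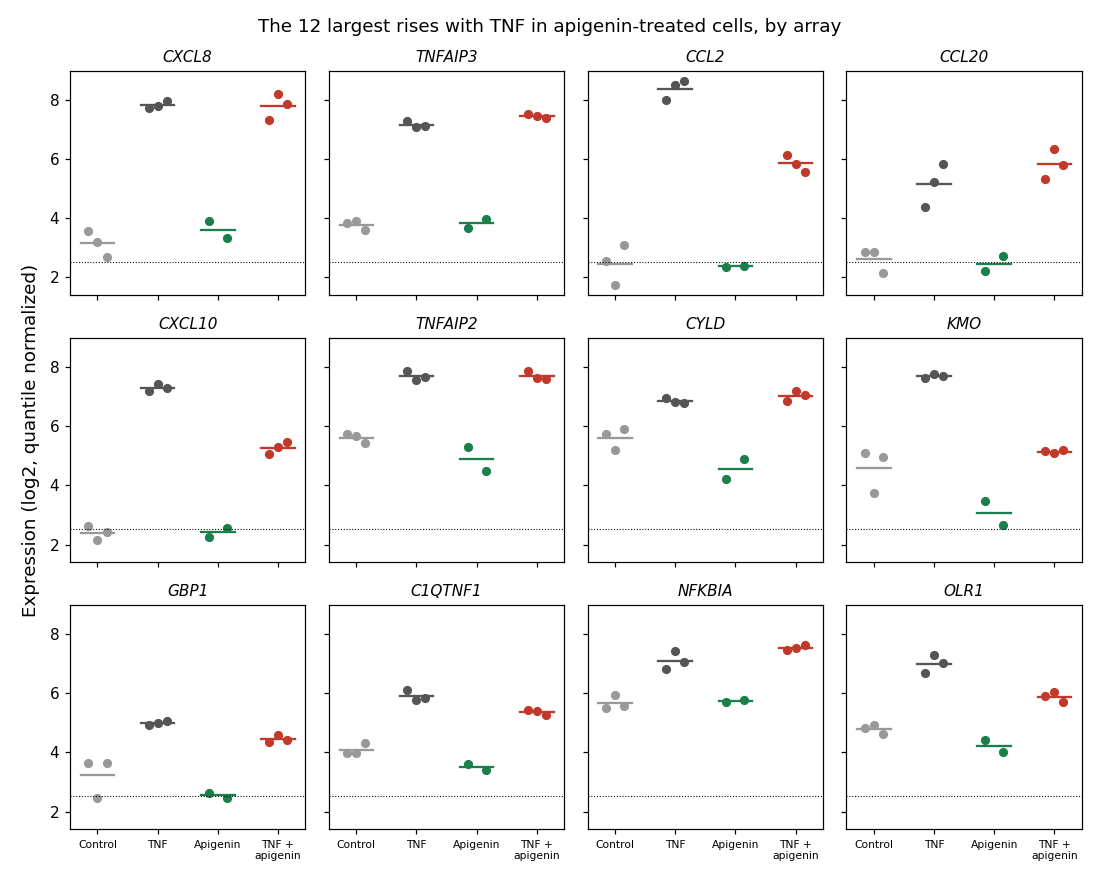
Expression (y axis, log2, quantile normalized) of the 12 genes with the largest rises, 1 point per array and a bar at each group mean, in control, TNF, apigenin and TNF plus apigenin. The dotted line is the background at 2.53; CXCL8 rises from 3.90 and 3.32 to between 7.30 and 8.18 when TNF is added to apigenin.

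Among the inhibitors that NF-κB induces against itself, 4 rose. TNFAIP3, the ubiquitin-editing enzyme A20 that shuts off TNF receptor signalling, was at 3.68 and 3.97 with apigenin and at 7.52, 7.46 and 7.37 with TNF added. The 3 TNF plus apigenin arrays lay close together, and the change of 3.63 ± 0.15 (adjusted p = 4.93e-07 by limma, 12.35-fold) had the smallest p of all tested genes. CYLD, a deubiquitinase of the same pathway, went from 4.20 and 4.88 to 6.85, 7.18 and 7.04, by 2.48 ± 0.23 (adjusted p = 0.000671, 5.6-fold). NFKBIA, the inhibitor that holds NF-κB in the cytoplasm, went from 5.70 and 5.78 to 7.47, 7.52 and 7.62, by 1.80 ± 0.18 (adjusted p = 0.00124, 3.47-fold). All 3 were still called whichever array was left out. TNIP1, a partner of A20, rose by 1.20 ± 0.15 (adjusted p = 0.00545), but its call was lost without apigenin 1 (0.99, adjusted p = 0.0568). These were 4 of 13 tested inhibitors and regulators, with none lower, 9 not called and a median of 0.38.

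Of the 5 NF-κB subunits, NFKB1, the p105 precursor of p50, rose, from 5.26 and 5.22 to 6.49, 6.52 and 6.39. Its change was 1.23 ± 0.12 (adjusted p = 0.000882 by limma). RELB, the partner of p52 in the alternative pathway, changed by 1.15 ± 0.26 (adjusted p = 0.0789 by limma). NFKB2, the p52 precursor, changed by 0.69 ± 0.16 (adjusted p = 0.0869), and neither was called. Their arrays did not overlap, a separation also seen in 32.9% of all tested genes. RELA, the p65 subunit, was the 1 subunit below 0, at 7.25 and 7.13 with apigenin and 6.92, 6.73 and 6.74 with TNF added. Its change was -0.39 ± 0.14 (adjusted p = 0.223), and it is named after its value was seen. At an unadjusted p under 0.05 the 5 subunits gave 3 higher and 1 lower, against 8.62% and 6.32% of all tested genes. Among the 7 IKK kinases, IKBKE, which activates interferon regulatory factors, rose by 1.41 ± 0.20 (adjusted p = 0.00976), from 3.90 and 3.28 to 5.18, 4.82 and 5.02. Of 15 tested TNF receptors and proximal signalling genes, TRAF3, an adaptor that restrains the alternative NF-κB pathway, rose by 1.47 ± 0.23 (adjusted p = 0.0154). Its call was lost without apigenin 1 (1.41, adjusted p = 0.105), TNF plus apigenin 1 or TNF plus apigenin 2, with changes of 1.34 to 1.64 over all the fits. BIRC2, which encodes the ubiquitin ligase cIAP1, was the only 1 of 22 apoptosis genes called, at 0.76 ± 0.14 (adjusted p = 0.0384), and kept its call in 2 of 11 fits (0.69 to 0.82). Its neighbour BIRC3 has no probe set of its own here.

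Several secreted and surface proteins rose. TNFAIP2, a TNF-induced membrane-remodelling protein, went from 5.30 and 4.48 to 7.85, 7.61 and 7.59, by 2.80 ± 0.22 (adjusted p = 0.000144 by limma, 6.95-fold). ICAM1, the receptor for leukocyte integrins, went from 7.72 and 7.34 to 8.98, 9.05 and 8.91, by 1.45 ± 0.20 (adjusted p = 0.00758, 2.73-fold). These were the 2 called genes among 13 adhesion molecules and TNFAIP genes. Among 26 cytokines and growth factors 3 rose, with a median over the list of 0.18. EDN1, the vasoconstrictor peptide endothelin-1, rose by 1.60 ± 0.17 (adjusted p = 0.00189). LIF, an IL-6 family cytokine, rose by 1.44 ± 0.20 (adjusted p = 0.0077), from 5.16 and 5.63 to 7.01, 6.67 and 6.83, and its call was lost without apigenin 1 (1.21, adjusted p = 0.0806). TNF itself rose by 1.40 ± 0.17 (adjusted p = 0.00463), from 4.46 and 4.22 to 5.79, 5.74 and 5.69. IL6 was at or near background on all 5 arrays, at 2.25 to 2.58, with a change of 0.11 ± 0.17 (adjusted p = 0.788).

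Outside these lists, C1QTNF1, a secreted C1q-like protein, rose by 1.86 ± 0.16 (adjusted p = 0.000315 by limma, 3.63-fold) and OLR1, the receptor for oxidized LDL, by 1.66 ± 0.20 (adjusted p = 0.00405, 3.17-fold). KMO, the kynurenine hydroxylase of tryptophan breakdown, was near background on apigenin 2 at 2.67, at 3.48 on apigenin 1, and at 5.14, 5.10 and 5.18 with TNF. It rose by 2.06 ± 0.34 (adjusted p = 0.0222) and was the 1 called gene of 7 in the kynurenine pathway. Its call was lost when apigenin 1 (2.5, adjusted p = 0.0548), apigenin 2 or any TNF plus apigenin array was left out, with changes of 1.66 to 2.5.

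Of 47 tested interferon-stimulated genes 5 rose, 42 were not called and none fell, and 17 of the 47 were higher at an unadjusted p under 0.05 against 8.62% of all tested genes. The median was 0.40. GBP1, GBP2 and GBP3 are guanylate-binding proteins that act on intracellular pathogens. GBP1 was near background at 2.65 and 2.48 and rose to 4.37, 4.57 and 4.42, by 1.89 ± 0.29 (adjusted p = 0.0155 by limma). GBP2 went from 3.58 and 4.12 to 5.39, 5.39 and 5.16, by 1.46 ± 0.16 (adjusted p = 0.00197), and GBP3 rose by 1.11 ± 0.14 (adjusted p = 0.0061). Among the sensors of double-stranded RNA, IFIH1 rose by 1.09 ± 0.14 (adjusted p = 0.00686) and RIGI by 0.94 ± 0.16 (adjusted p = 0.0232). PSMB9, a subunit of the immunoproteasome, rose by 0.87 ± 0.15 (adjusted p = 0.0256) as the 1 called gene of 21 in antigen presentation. Neither IRF1 (0.75 ± 0.18, adjusted p = 0.0912) nor any other of 10 IRF and STAT factors was called, with 2 higher and 0 lower at an unadjusted p under 0.05. The calls of GBP1 (2.0, adjusted p = 0.0806), IFIH1 (1.04, 0.0693), RIGI (0.98, 0.105) and PSMB9 (0.81, 0.133) were lost without apigenin 1. GBP1, RIGI and PSMB9 were also not called without TNF plus apigenin 2 or 3, GBP1 and RIGI without apigenin 2, and RIGI and PSMB9 without TNF plus apigenin 1. Over all these fits their changes were 1.81 to 2.0, 0.87 to 0.98 and 0.81 to 0.95.

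Of 21 cytokine receptors 3 were called: the interferon-γ receptor chains IFNGR1 (1.10 ± 0.15, adjusted p = 0.00758 by limma) and IFNGR2 (0.96 ± 0.12, adjusted p = 0.00545), and IL6ST, the shared chain of IL-6 family receptors (0.89 ± 0.15, adjusted p = 0.0254). IL6ST lost its call without apigenin 1 (0.92, adjusted p = 0.108), apigenin 2, or TNF plus apigenin 2 or 3, at 0.81 to 1.03. Complement and acute phase genes gave 3 rises among 13 tested, with a median of 0.15. At an unadjusted p under 0.05 they gave 4 higher and 1 lower, against 8.62% and 6.32% of all tested genes. The lower one, named after its value was seen, was HP, the haemoglobin-binding protein haptoglobin. It was at 4.11 on apigenin 1, 2.58 on apigenin 2 and 2.17 to 2.48 with TNF, a change of -1.01 ± 0.41 (adjusted p = 0.283). PTX3, a soluble pattern-recognition protein, rose by 1.22 ± 0.18 (adjusted p = 0.00998), CFB, complement factor B, by 1.17 ± 0.15 (adjusted p = 0.00619), and C3, the central complement component, by 1.0 ± 0.16 (adjusted p = 0.0194, 2.0-fold), from 4.19 and 4.45 to 5.23, 5.24 and 5.50. Without apigenin 1 the calls of PTX3 (1.15, adjusted p = 0.0852), CFB (1.09, 0.0693) and C3 (0.88, 0.121) were lost, as were PTX3 without TNF plus apigenin 2 (1.10 to 1.35 over the fits) and C3 without TNF plus apigenin 2 or 3 (0.88 to 1.14).

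Among matrix remodelling genes MMP7, the epithelial matrilysin, rose by 1.22 ± 0.15 (adjusted p = 0.00511 by limma), and it was the 1 call among 27. CLDN1, a tight junction claudin, rose by 0.80 ± 0.14 (adjusted p = 0.0251) as the 1 call among 13 genes of the epithelial-mesenchymal transition. That list had a median of -0.15 with 4 of 13 members above 0, and 2 higher and 4 lower at an unadjusted p under 0.05. Its lowest member, another claudin, CLDN7, changed by -0.64 ± 0.14 (adjusted p = 0.0617) and is named after its value was seen. SLC2A12, a glucose transporter, rose by 0.80 ± 0.15 (adjusted p = 0.0416) as the 1 call among 20 hypoxia and glycolysis genes. CLDN1 lost its call without apigenin 1 (0.73, adjusted p = 0.132) or TNF plus apigenin 2 or 3, at 0.73 to 0.90, and SLC2A12 kept its call in 1 of 11 fits, at 0.69 to 0.92. No gene was called among 26 luminal and secretory genes, 19 basal and S100 genes, 37 G1/S genes, 41 G2/M genes, 24 genes of the ATF4 and unfolded protein response or 20 NRF2 genes. The counts at an unadjusted p under 0.05 in these lists were 2 higher and 5 lower, 0 and 0, 2 and 2, 1 and 4, 0 and 5, and 4 and 2. Such counts are to be read against 8.62% higher and 6.32% lower over all tested genes. SPDEF, a luminal transcription factor, had the lowest p of its list, with a change of -0.93 ± 0.21 (adjusted p = 0.0802). Its change was -0.51 without apigenin 1 (adjusted p = 0.296) and -1.36 without apigenin 2, where it was called (adjusted p = 0.01). CDC20, an activator of the anaphase complex, changed by -0.63 ± 0.14 (adjusted p = 0.0763). None was called by limma among 17 AP-1 and immediate early genes (2 higher and 3 lower at an unadjusted p under 0.05), 17 MAPK feedback genes (2 and 0), 16 CDK inhibitors and p53-responsive genes (4 and 0), 12 histones (2 and 0) or 11 heat shock genes (1 and 1). The same held for 5 metallothioneins (0 and 0), 14 cholesterol and fatty acid synthesis genes (1 and 0), 10 prostaglandin genes (0 and 1), 12 ribosomal proteins (1 and 1) and 19 innate pattern recognition genes (5 and 1). In the last of these lists CGAS, the cytosolic DNA sensor, changed by 1.25 ± 0.26 (adjusted p = 0.0606). It changed by 0.81 without apigenin 1 (adjusted p = 0.262) and by 1.71 without apigenin 2, where it was called (adjusted p = 0.0196). In the first list FOSL1, an AP-1 subunit, changed by 0.93 ± 0.23 (adjusted p = 0.0979).

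**Figure D3:**
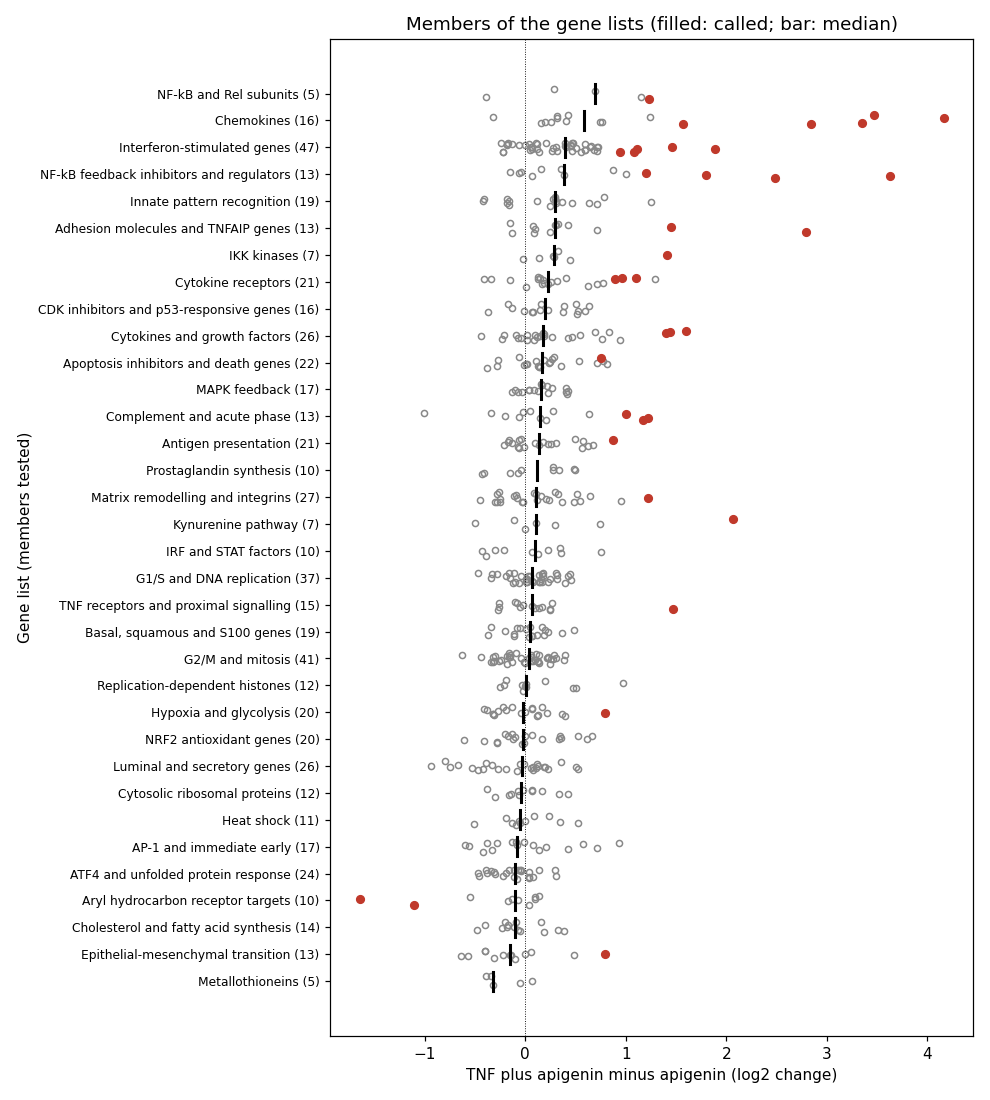
Log2 change of every tested member of each gene list (x axis, TNF plus apigenin minus apigenin), 1 row per list, with called members in red and a bar at the list median. The chemokine and NF-κB lists reach 4.17 (CXCL8) and 3.63 (TNFAIP3), and the aryl hydrocarbon receptor list holds the called falls of CYP1A1 and CYP1B1.

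The 18 falls had 1 group from the lists, the aryl hydrocarbon receptor targets, of which 2 of 10 fell and none rose. CYP1A1, a monooxygenase that oxidizes polycyclic aromatic compounds, was at 4.95 and 4.11 with apigenin and at 3.14, 2.91 and 2.60 with TNF added. The change was -1.65 ± 0.26 (adjusted p = 0.0194 by limma). With TNF its mean was under 3.03, near background, and the control arrays were at or near background too, at 2.35 to 2.83. Levels this low cannot show whether CYP1A1 returned to its control level. CYP1B1, a related enzyme that also hydroxylates estradiol, was at 8.25 and 7.88 and fell to 6.70, 7.03 and 7.16, a change of -1.10 ± 0.16 (adjusted p = 0.0123). Its control arrays lay at 6.77 to 6.92, so both CYP1 genes were above their control arrays with apigenin alone. The list median was -0.10, and the other 8 members were not called. Without apigenin 1 both calls were lost, with changes of -1.24 for CYP1A1 (adjusted p = 0.118) and of -0.91 for CYP1B1 (adjusted p = 0.105). CYP1A1 was also not called without TNF plus apigenin 2 or 3, and its change over the fits was -2.07 to -1.24.

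VTCN1 and SCNN1A, both expressed at the surface of epithelial cells, fell as well. VTCN1, the checkpoint protein B7-H4, was at 7.85 and 7.73 and fell to 6.83, 6.68 and 6.49, by 1.12 ± 0.15 on the log2 scale (adjusted p = 0.00619 by limma). SCNN1A, the alpha subunit of the epithelial sodium channel, fell by 1.01 ± 0.17 (adjusted p = 0.0222), from 5.65 and 5.42 to 4.72, 4.61 and 4.26. YBX2, a germ-cell RNA-binding protein, fell by 0.90 ± 0.16 (adjusted p = 0.0277), ALDH3B1, an aldehyde dehydrogenase, by 0.85 ± 0.16 (adjusted p = 0.0469), and MRPL2, a mitochondrial ribosomal protein, by 0.83 ± 0.15 (adjusted p = 0.0315). These 5 genes were not called on the deposited values, with arrays shifted to a common median or without apigenin 1 (VTCN1 at -1.06, adjusted p = 0.0693, SCNN1A at -0.90, 0.132, YBX2 at -0.85, 0.14, ALDH3B1 at -0.78, 0.184, MRPL2 at -0.81, 0.136). SCNN1A was also lost without TNF plus apigenin 2 or 3 (-1.12 to -0.88 over the fits), YBX2 and MRPL2 in 6 of the 11 fits (-0.96 to -0.85 and -0.87 to -0.78) and ALDH3B1 in 10 (-0.97 to -0.77).

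The other 5 of the 12 largest falls were in genes with low levels on the TNF plus apigenin arrays. OR4F5, an olfactory receptor gene, was at 4.41 on apigenin 1, 3.10 on apigenin 2 and 1.80, 2.33 and 1.64 with TNF, a change of -1.83 ± 0.32 (adjusted p = 0.0256 by limma). PRM2, a sperm protamine, was at 4.75 and 4.62 and fell to 3.58, 3.21 and 3.71, by 1.19 ± 0.17 (adjusted p = 0.00945). RN5S305 (-1.17 ± 0.23, adjusted p = 0.0469), HAND1 (-0.95 ± 0.17, adjusted p = 0.0305) and CIROZ (-0.90 ± 0.15, adjusted p = 0.0222) were near background. OR4F5 and CIROZ dropped out when at least 4 arrays at or above background were required. OR4F5 thus passed the filter mainly through the 2 apigenin arrays that make its fall, so its call is weak support for one. CIROZ too was at or above background on fewer than 4 arrays, which limits its call. On the deposited values RN5S305 and HAND1 were not called. Without apigenin 1 the change of OR4F5 was -1.18 (adjusted p = 0.108), a factor of over 1.5 smaller, and PRM2 (-1.14, 0.0806), RN5S305 (-1.28, 0.122), HAND1 (-0.72, 0.17) and CIROZ (-0.76, 0.133) were not called either. Over all such fits OR4F5 kept its call in 8, RN5S305 in 3, HAND1 in 5 and CIROZ in 7 of 11, with changes of -2.5 to -1.18, -1.28 to -1.07, -1.18 to -0.72 and -1.04 to -0.76. Of all called genes, 18 of the 78 rises and 5 of the 18 falls were near background.

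**Figure D4:**
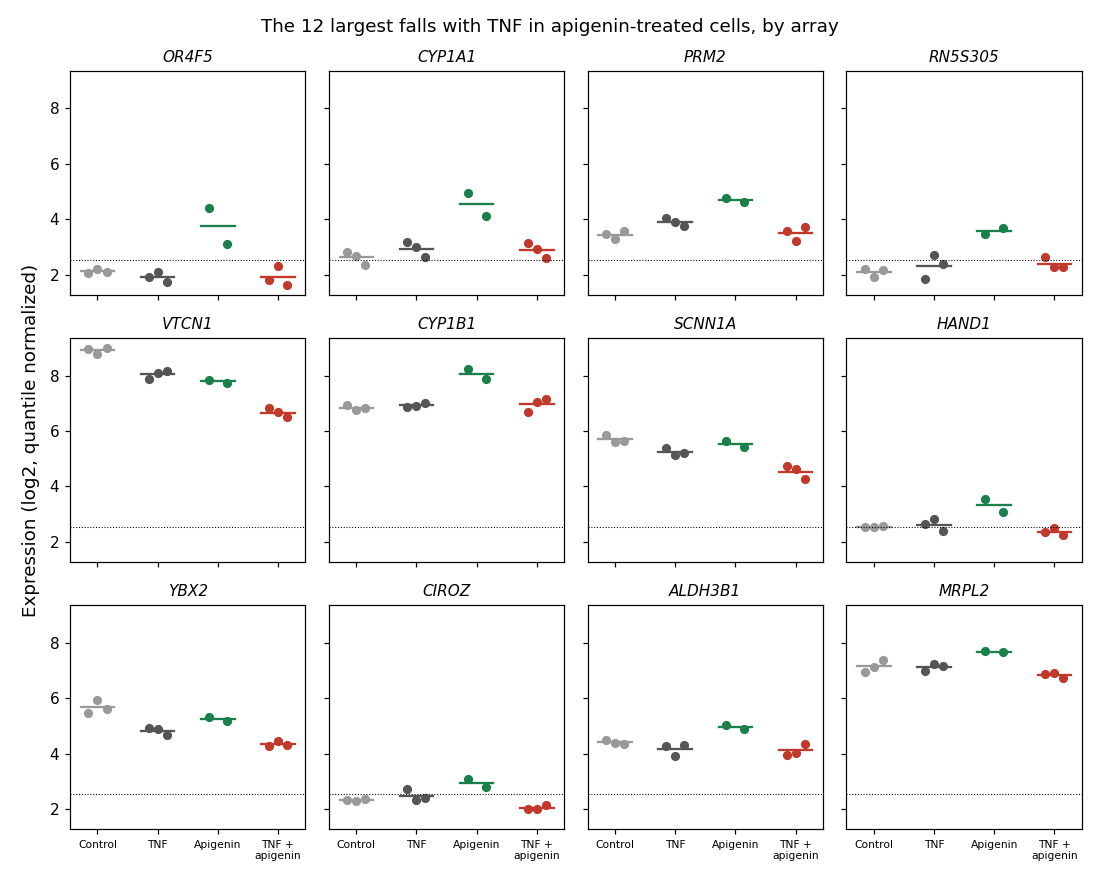
Expression (y axis, log2, quantile normalized) of the 12 genes with the largest falls, 1 point per array and a bar at each group mean, in the 4 groups, with the background at 2.53 dotted. CYP1A1 and CYP1B1 are higher on the 2 apigenin arrays than on the arrays of the other 3 groups.

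The TNF response of cells without apigenin was the difference between the TNF and control arrays. The group means behind it come from other arrays than those of the comparison above, but both were estimated in 1 fit that shares the normalization and the estimate of the spread. It called 186 genes (1.17%), 137 higher (0.865%) and 49 lower (0.309%). Of the 137 genes higher without apigenin, 132 changed in the same direction with apigenin and 43 were also called there, which is 31.4% of the 137 and 55.1% of the 78 rises with apigenin. Their median change was 0.72 with apigenin and 0.99 without, in genes that had been chosen for their change without it. Chosen the other way, the 78 rises with apigenin had a median of 1.08 with it and 0.81 without it. Of the 49 falls without apigenin 2 were called with it (4.1% of the 49 and 11.1% of the 18), VTCN1 and YBX2, and 32 had the same direction. Across all tested genes the correlation between both responses was 0.376. Among the members, CXCL8 changed by 4.17 with apigenin and 4.68 without, TNFAIP3 by 3.63 and 3.37, NFKBIA by 1.80 and 1.42, and ICAM1 by 1.45 and 1.76.

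**Figure D5:**
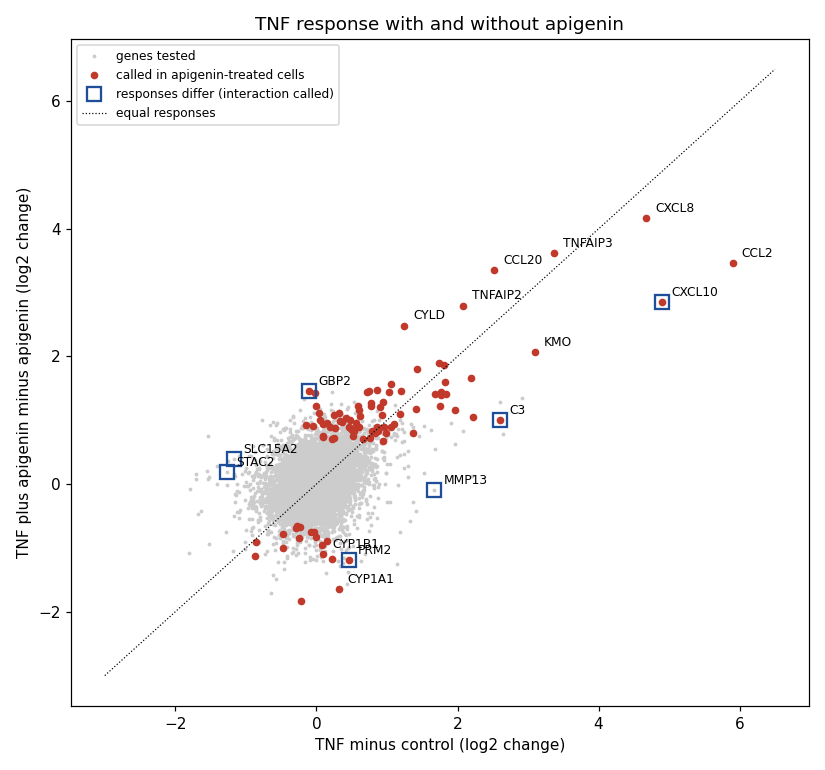
Log2 change with TNF in cells without apigenin (x axis, TNF minus control) against that with apigenin (y axis, TNF plus apigenin minus apigenin), 1 point per tested gene, with called genes in red and the 7 genes called for the difference between both in blue squares. CXCL8 lies at 4.68 and 4.17 and CXCL10 at 4.90 and 2.85.

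The difference between both responses was tested as an interaction, and 7 genes were called (0.0442% of those tested), with 1090 at an unadjusted p under 0.05. In 4 of them (0.0253%) the response with apigenin was lower. CXCL10 rose by 4.90 ± 0.16 without apigenin, to 7.18, 7.42 and 7.29, and by 2.85 ± 0.18 with it, a difference of -2.05 ± 0.25 (adjusted p = 0.0267 by limma). C3 rose by 2.61 ± 0.14 without apigenin and 1.0 ± 0.16 with it, a difference of -1.60 ± 0.22 (adjusted p = 0.0289). MMP13, a collagenase, rose by 1.67 ± 0.14 without apigenin, to 3.43, 3.52 and 3.18, and lay at 1.65 to 1.98 on the 5 arrays with it, below background (-1.76 ± 0.22, adjusted p = 0.0267). MMP13 passed the filter only through the 3 TNF arrays, which also make its difference. PRM2 differed by -1.64 (adjusted p = 0.0289). In the other 3 (0.0189%) the response with apigenin was higher. GBP2 was called with apigenin only (1.46 against -0.10 ± 0.14, a difference of 1.57 ± 0.21, adjusted p = 0.0289), and on arrays without apigenin it was at 5.70 to 5.87 whether or not TNF was given. SLC15A2, a peptide transporter, fell by 1.17 ± 0.13 without apigenin (difference 1.56 ± 0.19, adjusted p = 0.0267), and STAC2 by 1.26 ± 0.13 (difference 1.45 ± 0.19, adjusted p = 0.0289). With apigenin they changed by 0.39 ± 0.14 (adjusted p = 0.244 by limma) and 0.18 ± 0.14 (adjusted p = 0.577). On the arrays of apigenin without TNF they were at 3.66 and 3.76, and at 2.97 and 2.75. All 7 calls depended on the arrays. CXCL10 and MMP13 were called in 2 of 11 fits that left out 1 array, PRM2, SLC15A2 and GBP2 in 1, and C3 and STAC2 in none, with highest adjusted p values of 0.109 to 0.175, while the differences stayed at -2.22 to -1.89 for CXCL10, -1.93 to -1.61 for MMP13, -1.76 to -1.49 for PRM2, -1.74 to -1.47 for C3, 1.35 to 1.58 for STAC2, 1.45 to 1.65 for SLC15A2 and 1.31 to 1.84 for GBP2.

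For other members the test of the difference did not pass. CCL2 rose by 5.90 ± 0.29 without apigenin, to 7.98, 8.50 and 8.63, and by 3.47 ± 0.33 with it, a difference of -2.43 with a 95% interval of -3.39 to -1.47 and an adjusted p of 0.155 by limma. CYP1A1 changed by 0.32 ± 0.24 without apigenin (difference -1.96, interval -2.74 to -1.18, adjusted p = 0.155), and CYP1B1 by 0.09 ± 0.15 (difference -1.19, interval -1.68 to -0.71, adjusted p = 0.173). CYLD rose by 1.24 ± 0.21 without apigenin and 2.48 ± 0.23 with it (difference 1.25, interval 0.56 to 1.93, adjusted p = 0.385). For CXCL8 the difference was -0.51 (interval -1.36 to 0.35, adjusted p = 0.842) and for TNFAIP3 0.25 (interval -0.18 to 0.69, adjusted p = 0.844). These intervals do not show that the responses were equal. Of 27 matrix genes, 7 were called higher with TNF in cells without apigenin and 1 with it. Of 26 luminal genes 6 were called lower without apigenin and 0 with it, at a median of -0.16 and -0.03. Other lists went the other way. Chemokines and interferon-stimulated genes each had 4 rises without apigenin and 5 with it, and aryl hydrocarbon receptor targets had 0 and 2 falls. Over all tested genes 0.865% were called higher and 0.309% lower without apigenin, against 0.493% and 0.114% with it. The differences between these counts were not tested.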

How the data were processed

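The authors deposited log2 values of 53617 probe sets. The submitters' processing notes name Affymetrix Expression Console. Its version and summarisation method and the genome build were not given in the sources used here. That the logarithm has base 2 was judged from how far the values reach. Probe sets with 1 gene symbol (23871) were used, and for genes with several the probe set with the highest mean. All 11 arrays were quantile normalized, because array apigenin 1 was dimmer. Genes at or above the background on 2 or more arrays, 15832 in all, were tested. A gene could thus pass through the group in which it was high. The limma 3.58.1 fit (R 4.3.3) gave every group its own mean over the 11 arrays and left 7 residual degrees of freedom. The p-values, all two-sided, were adjusted by the Benjamini-Hochberg method. Errors are moderated standard errors (SE) and intervals are 95%. A test on simulated data covered only the normalization and the limma fit of TNF plus apigenin against apigenin.

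The members and the 34 gene lists were chosen with earlier results of these data known. Genes were named by a rule: the 12 highest and 12 lowest changes among called genes with separate arrays, up to 6 called members of each list or the member with the lowest p, 17 TNF and aryl hydrocarbon receptor genes, and the genes called for the interaction. The alternatives were other scalings and filters, array weights, a variance trend, a replicate block, the 5 arrays alone and leaving out each array. The number of arrays limits the precision.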

Additional observations from a re-analysis of the deposited data

Results flagged for a closer look

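The difference between the TNF response with apigenin and that without it passed the interaction test of limma in 7 genes. These calls rest on few arrays: when 1 array was left out, each was kept in 0 to 2 of 11 fits, C3 and STAC2 in none, and with the replicate number as a block limma called 0 genes, with 1156 at an unadjusted p under 0.05. The differences (with minus without apigenin, log2) were -2.05 for CXCL10, -1.76 for MMP13, -1.64 for PRM2, -1.60 for C3, 1.45 for STAC2, 1.56 for SLC15A2 and 1.57 for GBP2. CXCL10 and C3 rose in both settings and by less with apigenin. MMP13 rose without apigenin (1.67 ± 0.14) and changed by -0.09 ± 0.16 with it, where it lay below background. It passed the filter only through the TNF arrays that make this difference. STAC2 and SLC15A2 fell without apigenin, and both were lower on the arrays of apigenin without TNF than on the control arrays. STAC2 was at 2.75 to 2.97 against 3.94 to 4.22, and SLC15A2 at 3.66 to 3.76 against 5.63 to 5.94. GBP2 was lower on the apigenin arrays, at 3.58 and 4.12, than in control, at 5.80 to 5.87, and reached 5.16 to 5.39 with TNF. PRM2 was higher on the apigenin arrays, at 4.62 to 4.75, than in control, at 3.29 to 3.57. What sets these differences was not tested.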

How the results depend on the processing

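Calls for TNF plus apigenin against apigenin numbered 173 with arrays shifted to a common median, 159 with a variance trend, 18 in the 5 arrays alone and 30 to 223 when 1 array was left out, against 96. Calls for the difference of the responses numbered 4 on the deposited values, 11 with a trend and 0 to 23 when 1 array was left out, against 7. Of these, 23 were without apigenin 2 and 2 without control 1, and each of the other 9 fits by limma gave 0, with 902 to 1190 genes at an unadjusted p under 0.05. Calls for TNF against control numbered 110 on the deposited values and 109 to 198 when 1 array was left out, against 186. The lowest were 109 without TNF 2, 112 without control 1 and 119 without TNF 3.

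With the replicate number as a block, calls for TNF plus apigenin against apigenin were 62 in 11 arrays (54 shared) and 9 in the 4 arrays of replicates 1 and 2. Those for the difference of the responses were 0 by limma, with 1156 at an unadjusted p under 0.05. Deviations of same-numbered arrays from their group means correlated at -0.187 to 0.284. Arrays with different numbers were not compared, so this range cannot show whether the numbers pair the samples. The main fit did not pair them.

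The 48 called genes named here were still called in 371 of 478 comparisons under other settings and in 415 of 528 with 1 array left out, and none changed direction. As the arrays of every called gene were separate, leaving out 1 array could hardly turn a direction. MMP13, which was not called, turned to 0.0768 without apigenin 1, and was -0.257 without apigenin 2.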

Other observations

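Further rises lay outside the gene lists, and the following were picked after their values were seen. EFNA1, a ligand of Eph receptors, rose by 1.28 ± 0.14 (adjusted p = 0.00237 by limma) and kept its call whichever array was left out. SGPP2, which dephosphorylates sphingosine 1-phosphate, rose by 1.41 ± 0.17 (adjusted p = 0.0043), CTSS, the lysosomal protease cathepsin S, by 1.17 ± 0.17 (adjusted p = 0.0103), and CP, the copper-carrying ferroxidase ceruloplasmin, by 0.85 ± 0.12 (adjusted p = 0.00958). F3, the tissue factor that starts coagulation, rose by 0.83 ± 0.14 (adjusted p = 0.0271), TGFB2 by 0.72 ± 0.13 (adjusted p = 0.0305) and CD47, the signal that restrains phagocytes, by 0.68 ± 0.13 (adjusted p = 0.0469). Without apigenin 1 the calls of SGPP2 (1.34, adjusted p = 0.0568), CTSS (1.25, 0.0693), CP (0.87, 0.0693), F3 (0.86, 0.111), TGFB2 (0.65, 0.153) and CD47 (0.62, 0.18) were lost. Of the 11 fits that left out 1 array, the call was kept in 10 for SGPP2, 9 for CP, 8 for CTSS, 7 for F3, 4 for TGFB2 and 2 for CD47. CP and CTSS were also lost without TNF plus apigenin 2, CTSS without TNF plus apigenin 3, and F3 without apigenin 2 or TNF plus apigenin 2 or 3. TGFB2 was also lost without control 1 or 3, TNF 2 or 3, or TNF plus apigenin 2 or 3. CD47 kept its call only without control 1 or control 2. Changes over these fits were 1.33 to 1.5 for SGPP2, 0.83 to 0.88 for CP, 1.11 to 1.27 for CTSS, 0.76 to 0.92 for F3, 0.65 to 0.80 for TGFB2 and 0.62 to 0.73 for CD47.

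Non-coding genes were also among the rises. The probe set of MIR21 was at 6.05 and 6.29 on the apigenin arrays and at 7.16, 7.06 and 7.06 with TNF added, above the control arrays at 5.84 to 6.10 and the TNF arrays at 5.81 to 5.92. The change was 0.93 ± 0.14 (adjusted p = 0.0108 by limma) with apigenin and -0.14 ± 0.12 (adjusted p = 0.72) without it, and the difference of 1.07 ± 0.18 did not pass the test (adjusted p = 0.118). Without apigenin 1 the change was 0.80 (adjusted p = 0.0982). The probe set reads transcripts of the locus and not the mature miRNA, which RefSeq gives at chr17:59841273-59841294 (GRCh38.p14, plus strand). It is shown with its seed, bases 2 to 8, in capitals.

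hsa-miR-21-5p: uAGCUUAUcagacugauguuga

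LUCAT1, a long non-coding RNA, rose by 1.0 ± 0.16 (adjusted p = 0.018 by limma), and its call was lost without apigenin 1 (0.81, adjusted p = 0.114) or without any 1 of the TNF plus apigenin arrays, with changes of 0.81 to 1.20 over all 11 fits.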
